A study of Homo sapiens with 2 samples.

Results

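Spliced snoRNA host genes are transcribed into precursors whose introns carry small nucleolar RNAs (snoRNAs). 10 of them, GAS5, SNHG1, SNHG5, SNHG6, SNHG7, SNHG8, SNHG12, SNHG15, SNHG16 and ZFAS1, were taken by gene name from the transcript annotation of a nanopore single-cell RNA library, out of 57110 gene entries in all. The library was a pool of equal numbers of cells from 3 ovarian cancer lines (COV504, IGROV1 and SK-OV-3), and the labels name no treatment, genotype change or time point. It was read on a PromethION and served to benchmark Isosceles, a program that assigns long reads to transcripts. The Illumina library of the same pool is represented here by its barcode list, and all 2462 barcodes of the long-read library were in that list of 2462. All values below come from the single PromethION library, so no difference between lines had a replicate check and no test was run. The bracketed ranges are exact 95% intervals and cover counting error only, and none of the sources read here says whether the counts stand for molecules or for reads.

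The barcodes carried no label of their line, so they were grouped by 10 marker genes that are not hosts. Of 2129 barcodes with at least 1000 counts, 648 had at least 75% of their marker counts on ERBB2, NNMT, TSPAN1 and DHRS2 and are called ERBB2-high. A further 473 had that share on RARRES2 and TMEM100 and are called RARRES2-high. FOLR1, CLDN3, DEFB1 and CXCL14 held that share in 765 barcodes, which are called FOLR1-high. The remaining 243 barcodes were unassigned. ERBB2-high barcodes are SK-OV-3-like: 4 neighbours of ERBB2 in its amplicon (MIEN1, STARD3, GRB7, PGAP3) were at 528, 214, 56.4 and 22.9 CPM (counts scaled to a total of 1000000 per group), above the other 2 groups, and CDKN2A had 1 count (0 in RARRES2-high and 88 in FOLR1-high barcodes). The IGROV1 markers were divided between the other 2 groups, with PAX8 highest in FOLR1-high barcodes (143 against 95.03 CPM in RARRES2-high) and CDH1 (45.0 against 2.44 CPM) and ESRP1 (8.88 against 0.886 CPM) higher in RARRES2-high barcodes. FOLR1 and CLDN3 defined the FOLR1-high group, so their levels there add nothing to this. These 2 groups therefore keep the names of their genes. Markers of blood and vessel cells (PTPRC, CD3E, HBB, PECAM1 and VWF) were at 0 to 1.77 CPM, and CD68 shares an entry with other genes and could not be read. Median counts per barcode were 4953, 6262 and 5289 in ERBB2-high, RARRES2-high and FOLR1-high barcodes. Ribosomal protein genes took 11.9%, 15.0% and 26.6% of the counts in the same order, and mitochondrial genes 2.93%, 3.11% and 7.07%.

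The snoRNAs are cut out of the debranched introns after splicing. Box C/D snoRNAs guide 2'-O-methylation and box H/ACA snoRNAs guide pseudouridylation, mostly of ribosomal RNA, in the nucleolus. The spliced host exons often hold no conserved reading frame, and in several hosts they are translated briefly and removed by nonsense-mediated decay. Many hosts belong with ribosomal protein genes to the 5' terminal oligopyrimidine (TOP) class, whose RNAs begin with a C and a run of pyrimidines and answer to growth signals.

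The RefSeq annotation places 37 snoRNAs inside the 10 genes. GAS5 holds 11, SNHG1 9, SNHG12 4, SNHG16 and ZFAS1 3 each, SNHG5 and SNHG7 2 each, and SNHG6, SNHG8 and SNHG15 1 each. Set against the leading transcript of each host (the one with the most counts), 32 lay in introns, 4 inside exons, and SNORA103 in GAS5 overlapped an exon end. The table lists 58 transcripts of the 10 genes, 50 of them above 0, out of 136 in GENCODE 29. None of the 48 transcripts that GENCODE classes as retained introns (0 of 48) is among those listed, so unspliced host RNA could be counted only where a listed transcript holds the intron.

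The pieces of host RNA on which the transcript results turn are shown here, read from GENCODE 29 transcripts on GRCh38. In GAS5 exon 7, chr1:173865471-173865547 on the minus strand, the capitals are the 39 bases that the exon gains when the downstream of its 2 splice donors is used. In SNHG8, chr4:118278773-118278963 on the plus strand, the capitals are the 151 bases of intron 1, which the leading transcript keeps, and the lower-case ends are 20 bases of exon on either side. The kept intron begins with GT and ends with AG, and 46.4% of its bases are G or C. The 3 snoRNAs below lay inside exons of counted transcripts: SNORD25 in SNHG1 (chr11:62855564-62855632, minus strand), SNORD1C in SNHG16 (chr17:76558791-76558868, plus strand) and SNORA9 in SNHG15 (chr7:44985378-44985510, minus strand). Capitals mark box C (TGATGA) and box D (CTGA) in SNORD25, box D in SNORD1C and the ACA near the end of SNORA9.
GAS5 exon 7: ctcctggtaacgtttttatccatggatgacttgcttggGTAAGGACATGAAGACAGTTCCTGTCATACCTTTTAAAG
SNHG8 intron 1: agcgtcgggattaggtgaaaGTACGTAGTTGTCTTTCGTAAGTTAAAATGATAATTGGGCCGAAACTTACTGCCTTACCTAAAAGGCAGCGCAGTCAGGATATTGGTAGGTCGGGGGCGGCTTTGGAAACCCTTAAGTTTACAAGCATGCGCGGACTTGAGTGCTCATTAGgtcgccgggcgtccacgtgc
SNORD25: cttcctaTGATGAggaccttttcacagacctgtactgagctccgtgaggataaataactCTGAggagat
SNORD1C: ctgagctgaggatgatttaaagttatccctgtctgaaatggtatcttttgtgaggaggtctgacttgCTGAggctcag
SNORA9: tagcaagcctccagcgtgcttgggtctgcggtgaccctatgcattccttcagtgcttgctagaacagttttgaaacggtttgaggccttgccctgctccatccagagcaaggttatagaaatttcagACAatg

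On the strand of the gene, TGATGA followed by CTGA occurred in 43.9% of 545 GENCODE snoRNAs and in 0.260% of 27305 promoter stretches of 69 bases. CTGA alone was in 29.5% of promoter stretches of 78 bases. ACA in the last 8 bases was in 36.3% of the snoRNAs and in 7.47% of promoter stretches of 133 bases. A match describes the letters and does not show a working box.

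The 10 hosts together took 12916 counts, 0.0990% of the library, of which 11636 were in barcodes of the 3 groups. Their summed level was 763 CPM (734 to 792) in ERBB2-high, 588 CPM (562 to 614) in RARRES2-high and 1556 CPM (1520 to 1593) in FOLR1-high barcodes. FOLR1-high barcodes were thus highest, RARRES2-high lowest, and no 2 of the intervals overlapped. GAS5 alone made up 13.5%, 17.8% and 42.4% of the host counts in the same order. Unassigned barcodes stood at 760 CPM (718 to 804).

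GAS5, the growth arrest-specific host of 10 box C/D snoRNAs and SNORA103 (chromosome 1, 173863900 to 173868882, minus strand), is known to accumulate when growth stops and to bind the glucocorticoid receptor. Its level was 103 CPM (92.4 to 114, 354 counts) in ERBB2-high barcodes, 105 CPM (93.9 to 116, 353 counts) in RARRES2-high barcodes and 660 CPM (636 to 684, 2978 counts) in FOLR1-high barcodes. The first 2 groups had overlapping intervals and the third lay far above both. FOLR1-high barcodes were 6.41-fold (5.74 to 7.18) above ERBB2-high and 6.31-fold (5.65 to 7.07) above RARRES2-high barcodes. Ribosomal protein genes, whose share of counts was also highest in FOLR1-high barcodes, were then left out of the totals together with mitochondrial genes. The log2 ratio of GAS5 in FOLR1-high over ERBB2-high barcodes went from 2.68 to 3.04. This setting changes the totals only and shifts all remaining genes of the pair alike, such as SNHG6 from 0.58 to 0.94. It is therefore no check of GAS5 itself.

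SNHG5 (chromosome 6, 85660950 to 85678736, minus strand) carries the paired snoRNAs SNORD50A and SNORD50B. It reached 21.5 CPM (16.9 to 27.0) in ERBB2-high, 13.3 CPM (9.72 to 17.8) in RARRES2-high and 76.6 CPM (68.8 to 85.1) in FOLR1-high barcodes. FOLR1-high barcodes were again apart from the other 2 groups, 3.56-fold (2.77 to 4.65) above ERBB2-high and 5.75-fold (4.21 to 8.03) above RARRES2-high barcodes.

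SNHG8 (chromosome 4, 118278709 to 118279823, plus strand), the host of the H/ACA snoRNA SNORA24, had another order. It stood at 223 CPM (207 to 239) in ERBB2-high, 72.5 CPM (63.7 to 82.2) in RARRES2-high and 228 CPM (214 to 242) in FOLR1-high barcodes. ERBB2-high and FOLR1-high barcodes overlapped, with a ratio of 1.02 (0.932 to 1.13), and RARRES2-high barcodes were low. The FOLR1-high level was 3.14-fold (2.73 to 3.63) and the ERBB2-high level 3.07-fold (2.65 to 3.56) that of RARRES2-high barcodes.

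SNHG1 (chromosome 11, 62851988 to 62855914, minus strand), known as the host whose introns rather than exons are conserved, holds SNORD22, SNORD25 to SNORD31 and 1 more that RefSeq lists without a SNORD name. It was highest in ERBB2-high barcodes, at 45.9 CPM (39.0 to 53.6), against 17.5 CPM (13.3 to 22.5) in RARRES2-high and 19.9 CPM (16.0 to 24.5) in FOLR1-high barcodes, whose intervals overlapped. ERBB2-high barcodes were 2.30-fold (1.77 to 3.02) above FOLR1-high and 2.63-fold (1.94 to 3.61) above RARRES2-high barcodes.

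SNHG15 (chromosome 7, 44983023 to 44986961, minus strand), the host of SNORA9, was lowest in ERBB2-high, intermediate in RARRES2-high and highest in FOLR1-high barcodes. Its levels were 34.0 CPM (28.1 to 40.7), 52.1 CPM (44.7 to 60.4) and 69.8 CPM (62.3 to 77.9), with no overlap between neighbours. FOLR1-high barcodes were 2.05-fold (1.66 to 2.56) above ERBB2-high and 1.34-fold (1.11 to 1.62) above RARRES2-high barcodes. The first of these ratios sits at the 2-fold limit used for counting below.

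SNHG16 (chromosome 17, 76557769 to 76565348, plus strand), which carries SNORD1A, SNORD1B and SNORD1C, was the one host passing the count minimum that was highest in RARRES2-high barcodes without overlap. Its levels were 12.2 CPM (8.79 to 16.5) in ERBB2-high, 36.1 CPM (30.0 to 43.1) in RARRES2-high and 21.5 CPM (17.4 to 26.2) in FOLR1-high barcodes. RARRES2-high barcodes were 2.96-fold (2.07 to 4.31) above ERBB2-high and 1.68-fold (1.28 to 2.22) above FOLR1-high barcodes.

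SNHG12 (chromosome 1, 28578538 to 28582983, minus strand) holds SNORD99 and 3 H/ACA snoRNAs, SNORA16A, SNORA44 and SNORA61. It stood at 15.1 CPM (11.3 to 19.8), 17.8 CPM (13.6 to 22.9) and 12.0 CPM (8.98 to 15.6) in ERBB2-high, RARRES2-high and FOLR1-high barcodes, and all 3 intervals overlapped. The interval of its FOLR1-high over RARRES2-high ratio, 0.673 (0.457 to 0.989), still left out 1. A few RARRES2-high barcodes decide its order, as described with the spread over barcodes.

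The other 2 hosts had fewer than the minimum of 100 counts over the 3 groups. ZFAS1 (chromosome 20, 49278178 to 49295738, plus strand), an antisense neighbour of ZNFX1 that hosts the SNORD12 family, had 73 counts, at 3.20 CPM (1.60 to 5.72), 3.85 CPM (2.05 to 6.58) and 10.9 CPM (8.03 to 14.3) in ERBB2-high, RARRES2-high and FOLR1-high barcodes. The sources read here do not say whether counting used strand, so reads of an antisense partner cannot be told apart from its own. SNHG7 (chromosome 9, 136721366 to 136728184, minus strand), host of SNORA17A and SNORA17B, had 27 counts and overlapping intervals in all 3 groups, between 1.45 and 2.96 CPM. For neither gene was the filter passed, and neither enters the counts below.

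SNHG6 (chromosome 8, 66921684 to 66926398, minus strand), the host of SNORD87, differed least between lines among the 3 most abundant hosts. It had 304 CPM (286 to 323, 1046 counts) in ERBB2-high, 267 CPM (250 to 285, 903 counts) in RARRES2-high and 455 CPM (436 to 475, 2055 counts) in FOLR1-high barcodes. FOLR1-high barcodes stood apart, while the ERBB2-high interval began at 285.7 CPM, just above the 285.3 CPM at which the RARRES2-high interval ended. FOLR1-high barcodes were 1.498-fold (1.39 to 1.62) above ERBB2-high and 1.70-fold (1.57 to 1.84) above RARRES2-high barcodes. GAS5 and SNHG6 together held 66.1% of all host counts in the 3 groups.

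**Figure D1:**
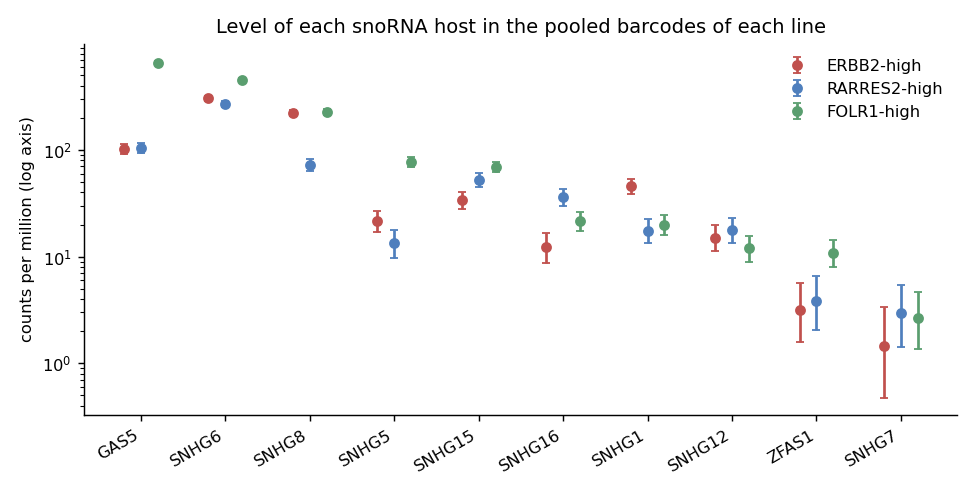
CPM (log axis) of the 10 snoRNA hosts in the pooled ERBB2-high, RARRES2-high and FOLR1-high barcodes, as points with exact 95% counting intervals. GAS5 stands at 660 CPM in FOLR1-high barcodes against 103 and 105 CPM in the other 2 groups, SNHG8 is low in RARRES2-high barcodes at 72.5 CPM, and SNHG1 is high in ERBB2-high barcodes at 45.9 CPM.

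The hosts were set in order by CPM per kilobase of the leading transcript. Whether counts of this long-read library grow with transcript length was not tested, so the order rests on that division. Without it SNHG16, with a leading transcript of 3607 bases, stood above SNHG12 (550 bases) in RARRES2-high barcodes, at 36.1 against 17.8 CPM. On the scale per kilobase GAS5 led in FOLR1-high barcodes with 1044, followed by SNHG6 with 713 and SNHG8 with 339. SNHG5 with 74.3 and SNHG15 with 71.0 came next, with overlapping intervals. SNHG12 at 21.7, SNHG1 at 14.5 and ZFAS1 at 10.1 followed, each overlapping its neighbour, ahead of SNHG16 at 5.96. By CPM without the division SNHG16 at 21.5 stood above SNHG1 at 19.9 (with overlapping intervals), SNHG12 at 12.0 and ZFAS1 at 10.9. In ERBB2-high barcodes SNHG6 led with 476, SNHG8 had 331 and GAS5 was in the third place with 163, and SNHG15, SNHG1, SNHG12 and SNHG5 formed an overlapping run from 34.6 down to 20.8. RARRES2-high barcodes had SNHG6 first with 419, then GAS5 with 165 and SNHG8 with 108, followed by SNHG15 with 53.1, SNHG12 with 32.3 and an overlapping run of SNHG5, SNHG1 and SNHG16 from 12.9 down to 10.01. SNHG7 had the lowest level per kilobase in each of the 3 groups, from 0.673 in ERBB2-high to 1.37 in RARRES2-high barcodes, and its interval overlapped that of ZFAS1 in those 2 groups.

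Between lines, the 8 hosts with at least 100 counts were set against all 8486 gene entries with as many, and a ratio of at least 2 was counted. Of these 8, 3 (GAS5, SNHG5, SNHG15) were at least 2-fold higher in FOLR1-high than in ERBB2-high barcodes, where 8.93% of all entries were. SNHG1 was the 1 host at least 2-fold lower, against 25.8% of all entries. The median host log2 ratio was 0.70 and the median of all entries -0.45. Over RARRES2-high barcodes, 3 hosts (GAS5, SNHG5, SNHG8) were at least 2-fold higher in FOLR1-high barcodes, against 12% of entries, and 0 of 8 were at least 2-fold lower, against 21.5%. The medians were 0.59 for the hosts and -0.20 for all entries. ERBB2-high barcodes exceeded RARRES2-high barcodes at least 2-fold in 2 hosts (SNHG8, SNHG1), against 20.7% of entries, and were lower in 1 (SNHG16), against 12.4%. There the median of the hosts was 0.08 and that of all entries 0.21.

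The split of all entries into higher and lower depended on the scaling. With totals, 25.7%, 35.9% and 62.5% of the entries past 2-fold were higher in FOLR1-high over ERBB2-high, FOLR1-high over RARRES2-high and ERBB2-high over RARRES2-high barcodes. With scaling by the median ratio of entries the shares were 50.6%, 48.6% and 48.5%. That scaling moved the median of all entries to -0.03, 0.01 and -0.00, and the host medians to 1.13, 0.81 and -0.13. GAS5 and SNHG5 stayed more than 2-fold higher in FOLR1-high barcodes under all 12 alternative settings. SNHG1 lost its 2-fold difference between ERBB2-high and FOLR1-high barcodes under 3 of them, with log2 ratios of -0.78 under median-ratio scaling, -0.79 with whole-number estimates only and -0.84 without mitochondrial and ribosomal protein genes. Whole-number estimates left SNHG1 with 23, 2 and 18 counts in ERBB2-high, RARRES2-high and FOLR1-high barcodes. On these few counts its log2 ratio went from 0.19 to 2.65 in FOLR1-high over RARRES2-high and from 1.39 to 3.44 in ERBB2-high over RARRES2-high barcodes. Its overlapping levels in RARRES2-high and FOLR1-high barcodes therefore hold only with the fractional estimates kept, which sum to whole numbers over the transcripts of a gene entry. SNHG15 was just under 2-fold with whole-number estimates, at a log2 ratio of 0.98. SNHG6 passed 2-fold over ERBB2-high barcodes under median-ratio scaling (1.01) and over RARRES2-high barcodes without mitochondrial and ribosomal protein genes (1.07). SNHG16 in FOLR1-high over ERBB2-high barcodes passed it under both of these settings, at 1.24 and 1.18. SNHG5 in ERBB2-high over RARRES2-high barcodes passed it with a marker share of 90% (1.02) and without the 5 richest barcodes of each line (1.09).

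**Figure D2:**
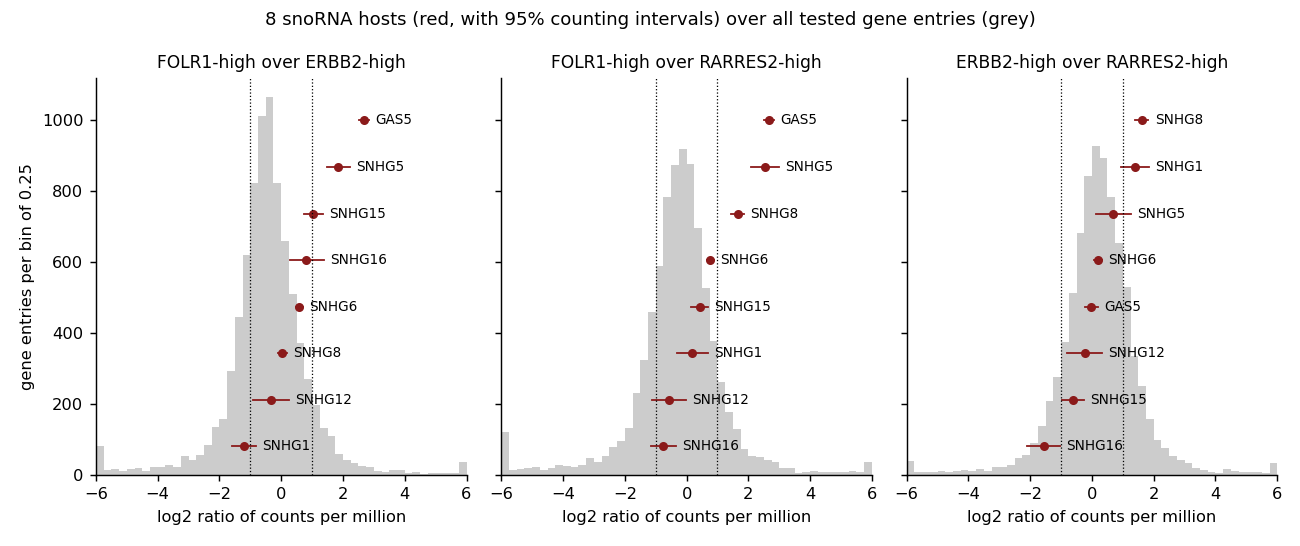
Log2 ratios of pooled CPM for the 8 snoRNA hosts with at least 100 counts (red points, 95% counting intervals, placed at arbitrary heights) over the histogram of all 8486 tested gene entries (grey, bins of 0.25; the end bins hold values beyond the axis). Dotted lines mark 2-fold. GAS5 at 2.68 and 2.66 and SNHG5 at 1.83 and 2.52 lie in the upper tail of both FOLR1-high comparisons.

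Only 171 of the 8486 entries (2.02%) had a larger log2 ratio than GAS5 in FOLR1-high over ERBB2-high barcodes, and 245 (2.89%) in FOLR1-high over RARRES2-high barcodes. For SNHG5 the shares were 3.48% and 3.19%. At the other end, 93.6% of entries had a larger ratio than SNHG16 in ERBB2-high over RARRES2-high barcodes. The FOLR1-high comparisons share their FOLR1-high barcodes, so their values are not independent of each other.

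Transcript usage differed most in SNHG8. The leading transcript, ENST00000602414 (3 exons, 672 bases), keeps intron 1, whose sequence is printed above, and ENST00000602819 (4 exons, 470 bases) removes it. The intron-keeping transcript held 89.4% (87.0 to 91.5) of SNHG8 counts in ERBB2-high, 78.7% (73.1 to 83.7) in RARRES2-high and 59.1% (56.0 to 62.1) in FOLR1-high barcodes. The spliced one held 9.94%, 18.6% and 38.9%. All 3 intervals of the intron-keeping share were apart. SNORA24 lies in a later intron that both transcripts remove, so no count fell on a transcript with it. The 2 transcripts also differ in their annotated start and end, and reads that stop inside exon 2 cannot show whether the intron was kept.

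SNHG8 was the 1 of 6 hosts with at least 50 counts in each group whose share changed by at least 20 percentage points between lines, against 5.26% of 3819 tested entries. Its largest difference was 30.3 points, and the median over tested entries was 5.31 points. The intron-keeping share lay between 87.0% and 89.8% in ERBB2-high, 72.1% and 80.8% in RARRES2-high, and 58.6% and 60.2% in FOLR1-high barcodes over 6 other settings. In 3 equal parts of the FOLR1-high barcodes by depth it was 58.6%, 58.2% and 59.8% from the shallowest to the deepest. The other groups were less even, at 87.9%, 93.6% and 87.0% in ERBB2-high and 86.8% (72.1 to 94.7), 75.1% and 77.6% in RARRES2-high barcodes. Within these parts the 3 groups were not all apart. The RARRES2-high interval overlapped that of ERBB2-high barcodes in the shallowest part (80.8 to 92.8 in ERBB2-high) and in the deepest (70.3 to 84.2 against 83.1 to 90.2), and that of FOLR1-high barcodes in the middle part (61.7 to 86.2 against 52.1 to 63.7). The ERBB2-high and FOLR1-high intervals were apart in all 3 parts. Unassigned barcodes stood at 75.9% (69.4 to 81.8).

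**Figure D3:**
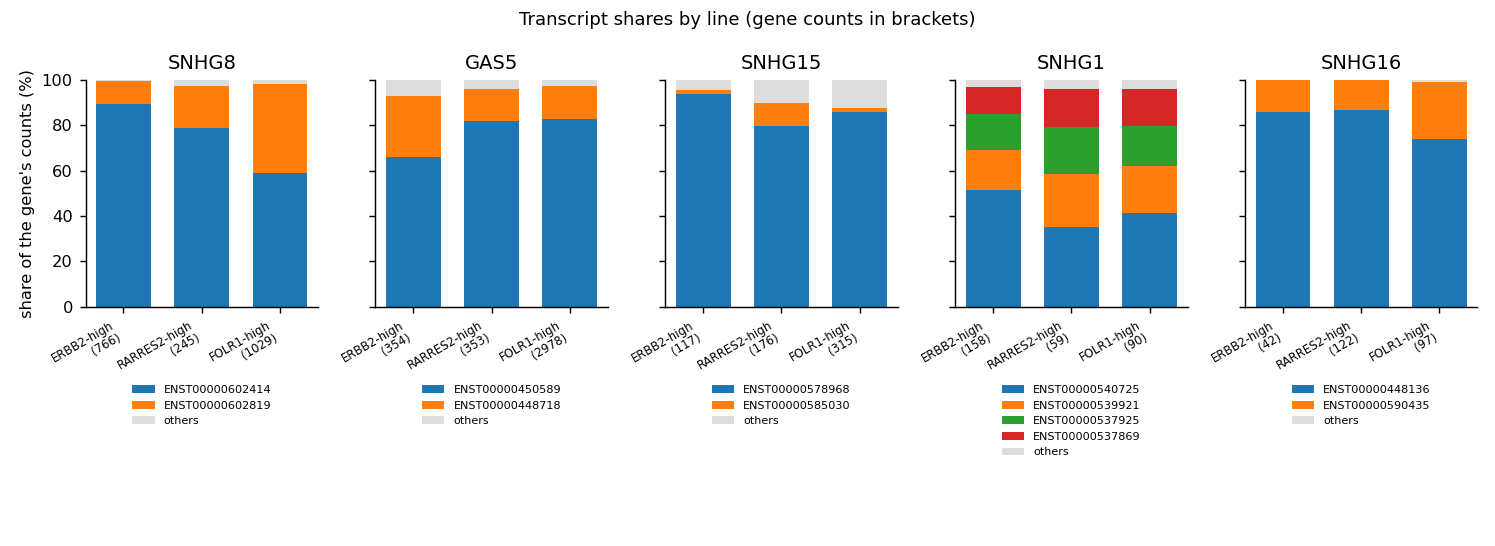
Share of each host's counts (%, bars starting at 0) on its named transcripts in ERBB2-high, RARRES2-high and FOLR1-high barcodes, with gene counts in brackets. The intron-keeping SNHG8 transcript goes from 89.4% in ERBB2-high to 59.1% in FOLR1-high barcodes, and the 12-exon GAS5 transcript from 66.2% in ERBB2-high to 82.8% in FOLR1-high barcodes.

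GAS5 differed by less. Its 12-exon transcript ENST00000450589 held 66.2% (60.9 to 71.0) of counts in ERBB2-high, 82.0% (77.8 to 86.0) in RARRES2-high and 82.8% (81.4 to 84.2) in FOLR1-high barcodes. ENST00000448718 (11 exons) held 26.7%, 14.0% and 14.6%. ERBB2-high barcodes were apart from the other 2 groups, which overlapped. These transcripts differ in 2 ways, since the 11-exon one lacks the 28-base first exon and uses the upstream donor of exon 7. Summed over all transcripts that cover it, the longer exon 7 was used in 68.4% (63.2 to 73.2), 83.7% (79.2 to 87.2) and 83.2% (81.8 to 84.5) of counts. By depth, from the shallowest to the deepest part, it was 71.6% (59.9 to 81.5), 57.6% (47.2 to 67.5) and 72.9% (65.8 to 79.3) in ERBB2-high, 76.7% (62.4 to 86.5), 88.5% (78.4 to 94.9) and 83.8% (78.4 to 88.4) in RARRES2-high and 82.8% (79.4 to 85.8), 81.1% (78.2 to 83.7) and 84.5% (82.6 to 86.2) in FOLR1-high barcodes. ERBB2-high barcodes were thus apart from both other groups in the middle part only: they overlapped both in the shallowest part and RARRES2-high barcodes in the deepest. The first exon was present in 69.9% (64.7 to 74.7), 84.4% (80.2 to 88.1) and 84.9% (83.6 to 86.2) of counts that could show it. These 2 groupings were chosen after seeing the data, and because the same 2 transcripts carry nearly all counts, the start and the donor cannot be told apart.

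SNHG15 moved by 14.3 points. Its leading transcript ENST00000578968 held 93.9% (88.1 to 97.6) of counts in ERBB2-high, 79.6% (72.8 to 85.2) in RARRES2-high and 85.6% (81.4 to 89.4) in FOLR1-high barcodes, and ENST00000585030 held 10.3% in RARRES2-high barcodes. SNHG1 was spread over 4 transcripts, led by ENST00000540725 with 51.5% (43.2 to 59.3), 35.0% (23.6 to 49.1) and 41.5% (30.8 to 52.0), whose intervals overlapped. ENST00000539921 held 17.5%, 23.3% and 20.5%, ENST00000537925 15.9%, 20.8% and 17.7%, and ENST00000537869 12.0%, 16.6% and 16.1%. Restricted to whole-number estimates the shares of ENST00000540725 were 82.6%, 100% and 77.8%, and the split of SNHG1 reads among its transcripts rests on fractional assignments. In SNHG6 and SNHG12 the transcript that differed most between groups did so by 1.51 and 3.08 points. The leading transcript of SNHG6, ENST00000520944, held 96.5% to 96.9% and that of SNHG12, ENST00000531126, 93.3% to 95.4% in the 3 groups. SNHG5, SNHG7, SNHG16 and ZFAS1 had fewer than 50 counts in at least 1 group, the minimum for comparing shares. The leading transcript held 91.7% to 95.9% in SNHG5 (ENST00000369605) and 90.9% to 100% in ZFAS1 (ENST00000450535). In SNHG7 it was ENST00000447221, with 4 of 5, 9 of 10 and 11 of 12 counts in ERBB2-high, RARRES2-high and FOLR1-high barcodes, and ENST00000436596 held 20% and 10% in the first 2.

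Of the 11636 host counts in the 3 groups, 476 (4.09%) were on transcripts with a whole snoRNA inside an exon. This share is largely set by which transcripts the table lists: GAS5, SNHG5, SNHG6, SNHG8 and SNHG12, which hold most of the counts, have 0 listed transcripts of this kind, so no read of theirs could be counted there. The other 5 hosts have 1 or 2 each. SNHG1 had 62.8% of its counts on 2 such transcripts, both with SNORD25, which begins at base 115 of the 1374-base leading transcript. In SNHG16 it was 81.6%, on ENST00000448136, where intron 1 (1087 bases) is kept and SNORD1C begins at base 1014 of 3607. The SNHG16 transcript that removes this intron, ENST00000590435, held 14.3%, 13.5% and 25.3% of counts in ERBB2-high, RARRES2-high and FOLR1-high barcodes. SNHG7 had 24 of 27 counts (88.9%) on a transcript that holds both SNORA17A and SNORA17B. SNORA9 was in 7.17% of SNHG15 counts, and SNORD12 in 3 of 73 ZFAS1 counts.

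By line, the SNORD25-holding share of SNHG1 was 67.5% (59.8 to 74.9) in ERBB2-high, 55.8% (42.4 to 68.8) in RARRES2-high and 59.2% (48.02 to 69.2) in FOLR1-high barcodes. The SNORD1C-holding share of SNHG16 was 85.7% (71.5 to 94.6), 86.5% (79.6 to 92.3) and 73.7% (64.3 to 82.6). For SNORA9 in SNHG15 it was 2.74% (0.532 to 7.31), 7.74% (4.42 to 13.0) and 8.50% (5.72 to 12.2). The intervals of the 3 groups overlapped in each of these hosts, and the differences between lines themselves were not tested.

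**Figure D4:**
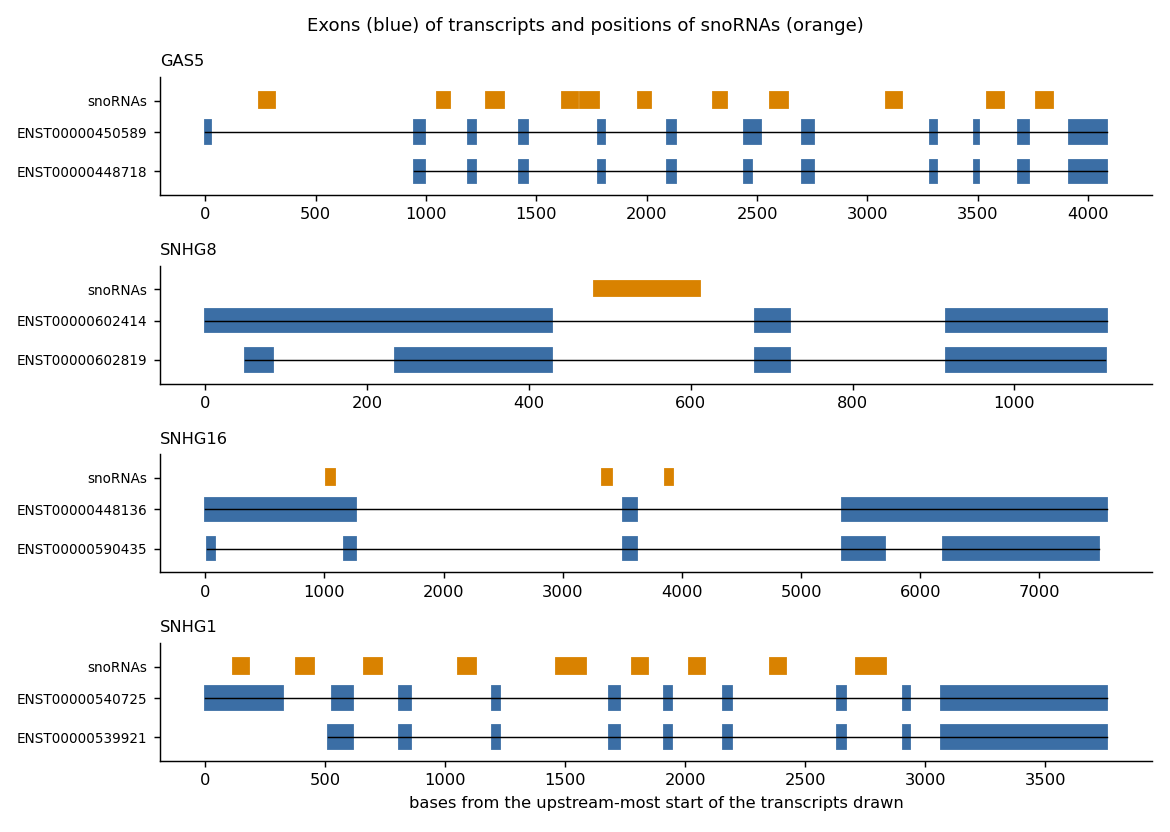
Exons (blue boxes) of the 2 leading transcripts of GAS5, SNHG8, SNHG16 and SNHG1 and the annotated snoRNAs (orange boxes), in bases from the upstream-most start of the transcripts drawn. Intron 1 of SNHG8 (151 bases) and of SNHG16 (1087 bases) is inside the first exon of the upper transcript, and SNORD1C and SNORD25 lie inside the first exons of SNHG16 and SNHG1.

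Start sites were read from the RefSeq promoter table (GRCh38.p14), in which 8 of the 10 hosts had an entry. A start was counted as TOP-like when a C followed by at least 4 bases that were each C or T began within 3 bases of it, on the strand of the gene. 4 of 8 hosts met this rule (50%), namely SNHG5, SNHG7, SNHG12 and ZFAS1. Among genes of tested entries it was 14.9% (1048 of 7055), among ribosomal protein genes 74.6% (47 of 63) and among the other snoRNA hosts listed 41.2% (7 of 17). At the annotated starts of GENCODE leading transcripts, the run was sought only from the start to 3 bases after it. By that narrower rule only SNHG5 had a run, 1 of 10, against 8.34% of 8480. The count of hosts therefore rests on the searched window as well as on which annotated start is read. SNHG7 has the same start base in both sources, and its RefSeq run begins 1 base before it. The 4 starts are printed from 10 bases before to 30 bases from the RefSeq start, with the pyrimidine run in capitals. They lie at chr6:85678704-85678743, chr9:136728155-136728194, chr1:28581844-28581883 (these 3 on the minus strand) and chr20:49278632-49278671 (plus strand).
SNHG5 start: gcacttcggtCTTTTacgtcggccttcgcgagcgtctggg
SNHG7 start: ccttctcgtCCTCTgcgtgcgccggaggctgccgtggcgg
SNHG12 start: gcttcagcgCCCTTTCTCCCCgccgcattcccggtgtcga
ZFAS1 start: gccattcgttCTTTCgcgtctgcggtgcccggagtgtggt

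GAS5 and SNHG16 missed the rule at these starts, yet GENCODE lists transcripts of both that begin with the same 11 bases, which open with a C and 4 T or C bases. An example of each is printed from the transcript start (chr1:173867950-173867989, minus strand, and chr17:76557769-76557808, plus strand), with the shared bases in capitals. Of 206694 GENCODE transcripts 8 begin with these 11 bases, and all 8 belong to these 2 genes. The GAS5 transcript printed, ENST00000449289, held 0.849% of GAS5 counts in ERBB2-high and 0.835% in FOLR1-high barcodes. The leading transcript ENST00000450589, with 66.2% and 82.8% of counts in these groups, has its annotated start at base 173867987, inside these 11 bases. Bases before that start were not searched for a run. The small share of ENST00000449289 therefore does not measure how many GAS5 counts began at this run.
GAS5 transcript start: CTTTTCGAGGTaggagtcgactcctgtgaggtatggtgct
SNHG16 transcript start: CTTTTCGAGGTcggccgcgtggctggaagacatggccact

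Within each line, barcodes were ranked by the share of their counts on 20 G2/M genes. The highest 25% were set against the lowest 50%, which is a cut along a range and not a cell type. SNHG1 differed in ERBB2-high barcodes alone among the 3 groups by an interval that left out 1: it was at 80.1 CPM in G2/M-high and 22.0 CPM in G2/M-low barcodes, 3.64-fold (2.42 to 5.57). In RARRES2-high barcodes its ratio was 0.803 (0.402 to 1.54) and in FOLR1-high barcodes 1.04 (0.606 to 1.75), and neither interval overlapped that of ERBB2-high barcodes. The ERBB2-high ratio was 3.89 (2.58 to 5.98) without called doublets and 2.49 (1.55 to 4.08) in barcodes with at least 5000 counts, both chosen after seeing the data, and 2.54 (1.45 to 4.38) for the highest 10%. With the same restriction to at least 5000 counts, the ratio was 1.03 (0.535 to 1.93) in FOLR1-high and 0.683 (0.279 to 1.52) in RARRES2-high barcodes, and the first of these intervals overlapped that of ERBB2-high barcodes. For the highest 10% the ratios of 0.639 (0.221 to 1.52) in FOLR1-high and 0.951 (0.353 to 2.21) in RARRES2-high barcodes both overlapped it.

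SNHG1 was also compared between lines within these cuts, which leave out the middle 25% of barcodes. Among G2/M-low barcodes the ratio of ERBB2-high to RARRES2-high was 1.11 (0.661 to 1.88), and among G2/M-high barcodes 5.04 (2.89 to 9.38). FOLR1-high over ERBB2-high was 0.883 (0.543 to 1.44) among G2/M-low and 0.252 (0.156 to 0.394) among G2/M-high barcodes. Both intervals held 1 in G2/M-low barcodes, where the first still allows a ratio of up to 1.88, and neither held 1 in G2/M-high barcodes.

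SNHG8 was lower in G2/M-high barcodes of all 3 lines, at 0.662 (0.551 to 0.793) of the G2/M-low level in ERBB2-high, 0.457 (0.318 to 0.646) in RARRES2-high and 0.635 (0.540 to 0.744) in FOLR1-high barcodes. Its intron-keeping share was also lower there in FOLR1-high barcodes, 49.2% (42.3 to 55.9) against 63.4% (59.2 to 67.5). In ERBB2-high it was 87.6% against 91.9% and in RARRES2-high 74.4% against 82.7%, with overlapping intervals. GAS5 stood at 0.995 (0.771 to 1.28) in ERBB2-high, 0.490 (0.364 to 0.651) in RARRES2-high and 0.769 (0.704 to 0.840) in FOLR1-high barcodes. In RARRES2-high barcodes SNHG15 at 0.440 (0.281 to 0.668), SNHG12 at 0.312 (0.117 to 0.712), SNHG5 at 0.247 (0.0627 to 0.712) and SNHG6 at 0.716 (0.602 to 0.850) were lower too. There the SNHG5 interval reached 1 without called doublets, at 0.333 (0.0823 to 1.001). The SNHG12 interval did so with at least 5000 counts, at 0.347 (0.0866 to 1.03). A few barcodes hold much of these counts, as described below, and no ratio without them is given. SNHG15 was also lower in ERBB2-high barcodes, at 0.625 (0.385 to 0.989), and SNHG6 in FOLR1-high barcodes, at 0.877 (0.789 to 0.974).

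The summed hosts stood at 1.00 (0.916 to 1.10), 0.600 (0.533 to 0.674) and 0.793 (0.749 to 0.840) of the G2/M-low level in ERBB2-high, RARRES2-high and FOLR1-high barcodes. Ribosomal protein genes stood at 0.910, 0.897 and 0.876, and G2/M-high barcodes were deeper, with medians of 6713 against 4602, 7788 against 5694 and 6260 against 4797 counts. The part of either in the result was not tested. G2/M-low barcodes of RARRES2-high still had 1723 CPM on the G2/M genes, against 81.0 CPM in ERBB2-high, so the 2 cuts do not span the same range.

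**Figure D5:**
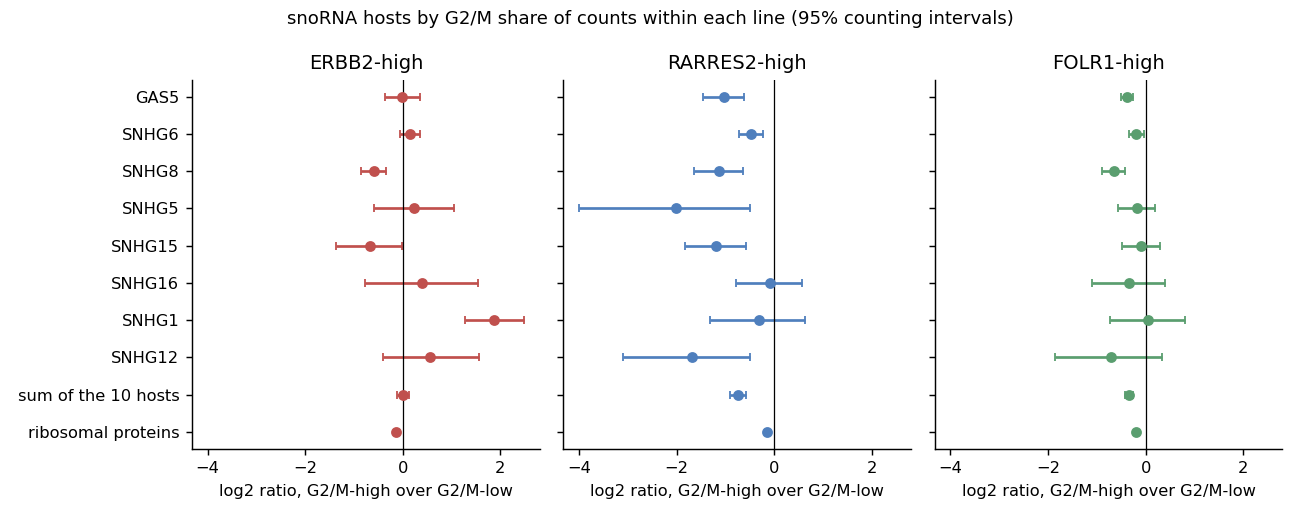
Log2 ratio of pooled CPM in G2/M-high over G2/M-low barcodes within each line, for 8 snoRNA hosts, the sum of the 10 hosts and ribosomal protein genes, with 95% counting intervals and a line at 0. SNHG1 is at 1.86 in ERBB2-high barcodes and at -0.32 and 0.05 in RARRES2-high and FOLR1-high barcodes, while SNHG8 is below 0 in all 3.

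The spread over single barcodes was read after thinning each to 2000 counts, which left out 42, 30 and 32 shallower barcodes of ERBB2-high, RARRES2-high and FOLR1-high. At that depth GAS5 had no count in 82.5% of ERBB2-high, 86.0% of RARRES2-high and 30.2% of FOLR1-high barcodes. Its median was 0, 0 and 1 count and its highest value 2, 5 and 8. For the summed hosts the median was 1, 1 and 3 counts and the highest 7, 16 and 17. Without thinning, GAS5 had no count in 62.7%, 66.0% and 9.41% of the barcodes. GAS5 counts were thus spread over most FOLR1-high barcodes. No group of barcodes here serves as one that lacks GAS5, so the part of free RNA in these shares was not tested.

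RARRES2-high barcodes were uneven. The 5 barcodes richest in SNHG12 held 53.3% of its counts there, led by 2 with 11 counts each, against 15.4% in ERBB2-high and 22.2% in FOLR1-high barcodes. For SNHG5 the 5 richest held 35.6%, for SNHG15 30.7%, for SNHG8 19.2% and for GAS5 19.0% in RARRES2-high barcodes. A single barcode of 9822 counts carried 63 host counts, among them 14 of SNHG15, 13 of GAS5, 12 of SNHG6, 11 of SNHG12 and 7 of SNHG5. Without the 5 barcodes of each line with the highest host share, a choice made after seeing the data, the log2 ratio of SNHG12 in FOLR1-high over RARRES2-high went from -0.57 to 0.26 and that in ERBB2-high over RARRES2-high from -0.23 to 0.60. With every barcode weighted equally the same ratios moved the other way, to -1.24 and -0.85. The GAS5 ratios of FOLR1-high barcodes without the richest barcodes were 2.65 over ERBB2-high and 2.74 over RARRES2-high, and with equal weights 2.65 and 2.63.

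Other genes of the same pathway were counted by list against the shares of entries given above. Of 13 tested entries of other snoRNA hosts, 4 were at least 2-fold higher and 1 lower in FOLR1-high than in ERBB2-high barcodes, against 8.93% and 25.8% of all entries. In FOLR1-high over RARRES2-high barcodes 7 were higher and 2 lower, against 12% and 21.5%. In ERBB2-high over RARRES2-high barcodes it was 2 higher and 1 lower, against 20.7% and 12.4%. The medians were 0.62, 1.24 and 0.34. SNHG17 and SNHG19 reached the minimum of 100 counts only through FOLR1-high barcodes, where they were highest, and SNHG11 only with both ERBB2-high and RARRES2-high barcodes, so these counts and medians describe the entries that passed and support nothing further. DANCR, host of SNORA26, stood at 29.6, 58.3 and 338 CPM in ERBB2-high, RARRES2-high and FOLR1-high barcodes. EPB41L4A-AS1 had 98.2, 21.3 and 190 CPM, and LRRC75A-AS1, which hosts SNORD49 genes, 39.5, 63.1 and 265 CPM. These 3 were highest in FOLR1-high barcodes, while SNHG11 was lowest there, at 19.8, 12.1 and 3.77 CPM. The entry that joins SNHG20 with SEC14L1 had 92.7, 364 and 53.8 CPM, and its reads cannot be given to one of these genes.

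Among 22 protein-coding TOP hosts and translation genes, 5 were at least 2-fold higher and 0 lower in FOLR1-high than in ERBB2-high barcodes, against 8.93% and 25.8% of all entries. In FOLR1-high over RARRES2-high barcodes 7 were higher and 0 lower, against 12% and 21.5%. In ERBB2-high over RARRES2-high barcodes 0 were higher, against 20.7%, and 2 lower, which is near the 12.4% of all entries. EIF3E, an initiation factor subunit, was at 322, 195 and 600 CPM, and HNRNPA1, a splicing factor, at 501, 330 and 884 CPM in ERBB2-high, RARRES2-high and FOLR1-high barcodes. EIF4A2, a helicase gene that hosts snoRNAs, had 71.2, 200 and 192 CPM. HSPA8, a chaperone gene that also hosts snoRNAs, had 337, 929 and 553 CPM.

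Of 12 snoRNP protein genes, 2 were higher and 0 lower in FOLR1-high than in ERBB2-high barcodes, against 8.93% and 25.8% of all entries. In FOLR1-high over RARRES2-high barcodes 2 were higher and 1 lower, against 12% and 21.5%. In ERBB2-high over RARRES2-high barcodes 1 was higher and 2 lower, against 20.7% and 12.4%. With 12 genes, counts this small are no result about this list. FBL, the methyltransferase of box C/D particles, had 143, 194 and 497 CPM in ERBB2-high, RARRES2-high and FOLR1-high barcodes, and RRP9, a U3 snoRNP protein, 22.9, 46.8 and 76.6 CPM. DKC1, the pseudouridine synthase of H/ACA particles, was instead lowest in FOLR1-high and ERBB2-high barcodes, at 74.7, 157 and 64.7 CPM. NAF1, an H/ACA assembly factor that reached 100 counts only with ERBB2-high barcodes, had 22.7, 7.10 and 15.5 CPM.

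Of 18 genes of nonsense-mediated decay and its known targets, 0 were higher and 5 lower in FOLR1-high than in ERBB2-high barcodes, 1 higher and 5 lower than in RARRES2-high barcodes, and 6 higher and 1 lower in ERBB2-high than in RARRES2-high barcodes. The 5 lower of 18 in each FOLR1-high comparison are near the 25.8% and 21.5% of all entries, so they are no result about this list. SMG5 and SMG9 reached 100 counts only through ERBB2-high and SMG8 only through RARRES2-high barcodes, where they were highest. The decay factors SMG5 at 23.2, 18.4 and 5.98 CPM and SMG9 at 29.3, 11.0 and 8.86 CPM had their lowest values in FOLR1-high barcodes, although the FOLR1-high and RARRES2-high intervals of SMG9 overlapped. Known decay targets did not share one order, with GADD45B at 108, 49.7 and 12.4 CPM and ATF4 at 451, 137 and 280 CPM. Of the 20 G2/M genes used for the ranking, 8 were at least 2-fold lower in ERBB2-high than in RARRES2-high barcodes, against 12.4% of all entries, and 6 were lower in FOLR1-high than in RARRES2-high barcodes, against 21.5%, with BIRC5 at 99.1, 287 and 72.4 CPM, UBE2C at 121, 434 and 158 CPM, HMMR at 68.0, 139 and 48.5 CPM and PLK1 at 64.2, 135 and 50.5 CPM.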

How the data were processed

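Single cells of the pooled lines were sequenced with a 10x Genomics library on a PromethION. The deposited matrix holds the authors' estimated counts per transcript and barcode; Cell Ranger 6.0.1 and GRCh38 are named in the submitters' processing notes, but for the aligner, the Isosceles version and the use of molecular identifiers nothing is given in the sources used here. Of the deposited estimated counts 39.8% were whole numbers (within 1e-06), and their sums per gene entry were whole in 100%. No doublet removal by the authors is stated. Scrublet (scanpy 1.11.5, expected rate 2%) called 77 barcodes (3.13%), 30 of them in the 3 groups, which were kept and left out only as an alternative.

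Estimated counts were summed per gene entry and pooled over the barcodes of a group. Levels are CPM (counts scaled to a total of 1000000) with exact Poisson intervals, ratios have exact conditional binomial intervals, and transcript shares have Clopper-Pearson intervals on rounded counts, all at 95%. The design holds 1 library, so no test was made. Gene entries needed 100 counts over the 3 groups for ratios and, for shares, 50 in each group. The ratio intervals were tested on simulated data. Exons and transcripts were taken from GENCODE 29 and snoRNA positions and promoters from RefSeq. The text names all 10 hosts, their transcripts with at least 10% of counts in any group, up to 4 genes per list with the largest ratio, and the 5 genes most like the hosts. SNHG11, transcripts and barcodes outside this rule were named after their values were seen. The hosts and lists were chosen with earlier results of these data known. Python 3.11.15, numpy 2.4.6, scipy 1.17.1, pandas 2.3.3 and matplotlib 3.10.9 were used.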

Additional observations from a re-analysis of the deposited data

How the results depend on the processing

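Depth limits SNHG7, ZFAS1, SNHG12 and SNHG16 most, with 27 to 261 counts each over the 3 groups. No paired analysis was possible because the series holds 1 long-read library and nothing was tested between samples. Of the results that answer a comparison, mainly counts past a limit and host medians, 126 values under alternative settings stayed close to those reported and 34 moved. The host median of ERBB2-high over RARRES2-high barcodes changed sign, from 0.08 to -0.13 under median-ratio scaling. Among values of single hosts, 478 stayed close and 44 moved. Some of their ratios changed sign, such as GAS5 and SNHG12 in ERBB2-high over RARRES2-high barcodes, each under 2 of 12 settings. The cause of each shift was not tested unless the setting itself changes how many entries are counted. The median log2 ratio of the hosts became 1.06 (FOLR1-high over ERBB2-high) and 0.90 (FOLR1-high over RARRES2-high) without mitochondrial and ribosomal protein genes, 1.13, 0.81 and -0.13 (ERBB2-high over RARRES2-high) under median-ratio scaling, and 0.40 for the last pair without the 5 richest barcodes of each line. In the order of these 3 pairs, entries past the limit numbered 4907, 4621 and 4655 at 1.5-fold, 1383, 1484 and 1322 at 3-fold, 4820, 4829 and 4718 with at least 20 counts, and 961, 997 and 899 with at least 500 counts. Hosts past the limit numbered 5 in each of the last 2 pairs at 1.5-fold, 2 in the first and 1 in the last at 3-fold, 2 in the first and 1 in the last with at least 500 counts, and 2 in the first with whole-number estimates. Entries past the share limit numbered 885 at 10 points (4 hosts: GAS5, SNHG1, SNHG8, SNHG15), 57 at 30 points and 115 with at least 100 counts in each group. For the highest 10% by G2/M share, the log2 ratio of the summed hosts was -0.27 in ERBB2-high, -1.05 in RARRES2-high and -0.47 in FOLR1-high barcodes, and it was -0.25 in ERBB2-high barcodes with at least 5000 counts. Of the 5 genes most like the hosts, 1 remained when barcodes were thinned to 4000 counts.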

Other observations

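The FOLR1-high barcodes hold 2 further groups, 257 with at least 75% of their CXCL14 and DEFB1 counts on CXCL14 and 189 with that share on DEFB1, a division chosen after seeing the data. GAS5 stood at 796 CPM in the CXCL14 and 544 CPM in the DEFB1 barcodes, a ratio of 1.46 (1.33 to 1.61). SNHG6 at 1.64 (1.45 to 1.84) and SNHG15 at 1.99 (1.45 to 2.76) were also higher in the CXCL14 barcodes. SNHG8 at 1.07 (0.911 to 1.26) and SNHG5 at 0.980 (0.741 to 1.30) had intervals around 1, and ZFAS1, with 10 and 21 counts, was lower at 0.429 (0.180 to 0.951). The intron-keeping share of SNHG8 was 57.9% and 59.0% in these barcodes, with overlapping intervals. Both GAS5 levels in FOLR1-high barcodes were above the 103 and 105 CPM of the other lines.

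The genes whose counts followed the summed hosts most closely over single barcodes (thinned to 2000 counts, Pearson r averaged over the 3 lines, 3276 candidates) were GADD45A with a mean r of 0.14, RPS18, RPS2 and DDIT3 with 0.12 each, and PPP1R15A with 0.10. All of these correlations are weak. In RARRES2-high barcodes alone r was 0.26 for GADD45A, 0.27 for DDIT3 and 0.27 for PPP1R15A, against 0.0093, -0.020 and 0.023 in FOLR1-high barcodes. These RARRES2-high values include the few host-rich barcodes described above, and their part in r was not tested. In FOLR1-high barcodes r was 0.23 for RPS18 and 0.20 for RPS2, against 0.039 and -0.0020 in ERBB2-high barcodes. The mean r thus rests on 1 or 2 of the 3 lines. With 4000 counts per barcode (1361 barcodes) the nearest were EPB41L4A-AS1, RPS12, RPL30, EIF1 and RPS18. Barcodes of a line share the library, and depth was set equal only by thinning.

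Among pairs of the 8 hosts in RARRES2-high barcodes, SNHG12 and SNHG15 had the highest r at 0.24, and the median over 28 pairs was 0.06. Without the 5 richest barcodes this pair fell to 0.06, the highest was 0.12 (SNHG5 with SNHG8) and the median -0.01. With all barcodes kept, the highest r was 0.09 in ERBB2-high and 0.13 in FOLR1-high barcodes.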
